A study of Mus musculus with 20 samples.

Results

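The genes described here are 10 genes that mark or shape the subsets of dendritic cells: Xcr1, Clec9a, Batf3, Irf8, Itgae, Flt3, Zbtb46, Ccr7, Siglech and Cd209a. They were taken as a list of symbols and matched to the Ensembl identifiers of the count table, where all 10 were found among 52783 genes. Their identifiers in the table are ENSMUSG00000060509 for Xcr1, ENSMUSG00000046080 for Clec9a, ENSMUSG00000026630 for Batf3, ENSMUSG00000041515 for Irf8, ENSMUSG00000005947 for Itgae, ENSMUSG00000042817 for Flt3, ENSMUSG00000027583 for Zbtb46, ENSMUSG00000037944 for Ccr7, ENSMUSG00000051504 for Siglech and ENSMUSG00000031494 for Cd209a. RNA was sequenced from cells of 2 mouse mammary tumours, 66cl4, which is metastatic, and 67NR, which is not. Both are cell lines of the 4T1 breast cancer model, and each was injected into the mammary fat pad of adult, immunocompetent female BALB/cJ mice. The resected tumours were dissociated and sorted by surface CD45, the pan-leukocyte phosphatase encoded by Ptprc, into leukocytes (CD45+) and all other cells (CD45-). There were 5 animals per tumour and 2 gates per animal, so 20 libraries from 10 animals, and each tumour type rests on 1 injected line. No other treatment was given and no healthy tissue is among the libraries. Animals are named by the numbers of the labels, 3 to 7 for 66cl4 and 1 and 4 to 7 for 67NR.

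Dendritic cells take up antigen and present it to T cells. Type 1 conventional dendritic cells (cDC1) depend on the transcription factors Irf8 and Batf3, carry the chemokine receptor Xcr1 and the dead-cell receptor Clec9a, and present antigen from dying tumour cells to CD8 T cells. Conventional dendritic cells as a class express the transcription factor Zbtb46 and grow in response to the ligand of the receptor kinase Flt3. Plasmacytoid dendritic cells, which carry Siglech in the mouse, are a main source of type I interferon. Mature dendritic cells of any conventional subset raise Ccr7, the receptor that guides them to lymph nodes. Cd209a is a lectin of monocyte-derived and type 2 conventional dendritic cells (cDC2), and Itgae encodes CD103, which is found on tissue cDC1 and on some T cells.

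Total estimated counts per library ranged from 12959951 to 18372211 in 67NR CD45+ cells, from 13729218 to 21495824 in 66cl4 CD45+ cells and from 13049974 to 28080226 in CD45- cells. Levels are given as normalised counts, that is counts divided by DESeq2's size factors over the 20 libraries. Among CD45+ libraries Ptprc averaged 19511 ± 1513 normalised counts for 66cl4 and 21884 ± 5630 for 67NR, against 75.2 ± 69.0 and 267 ± 136 among CD45- libraries (mean ± SD, n = 5), and in all 5 animals of each tumour the CD45+ library held more. The make-up of the CD45+ cells differed between the tumours. Summed over 7 neutrophil genes, 66cl4 libraries held 44191 to 125311 normalised counts and 67NR libraries 7185 to 52320, and 5 of the 7 genes were higher in 66cl4 by the test described next. The sum of 8 macrophage genes was 49457 to 76411 in 66cl4 and 76727 to 117539 in 67NR, with 1 gene called lower. The list was not uniform, with log2 fold changes below 0 for 5 genes and above 0 for 3. Mertk was higher in every 66cl4 library, short of the fold threshold only (0.88, edgeR adjusted p = 0.00169). The sum of 4 NK cell genes was 974 to 2383 against 2132 to 14441, with all 4 called lower. Of 4 monocyte genes 2 were called lower, Ly6c2 (-1.20 on the log2 scale) and Plac8 (-1.22), with a summed level of 17029 to 35060 against 25948 to 42707. Of 4 epithelial genes 3 were tested, and Krt8 (4.87) and Krt18 (3.18) were called higher, with an epithelial sum of 107 to 592 against 44.0 to 64.0. Epcam, the other one tested, went the other way and was not called (-0.91, edgeR adjusted p = 0.0734). The sum of 5 B cell genes was 5714 to 15112 in 66cl4 animals 4, 6 and 7, 147 and 206 in animals 5 and 3, 2903 in 67NR animal 6 and 362 to 846 in the other 67NR animals, with none of the 5 called. The part of these differences in the results below was not tested, other than by leaving out the 4 libraries highest in B cell genes. The sample titles, which were followed, go against the cell type given for animals 5 and 6 of 66cl4, so tests were also run without these animals. Ptprc in animals 5 and 6 went with the titles, at 17697 and 20442 normalised counts in the libraries titled CD45+ and at 138 and 40.4 in those titled CD45-.

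Between the CD45+ cells of the tumours, the cDC1 genes Xcr1 and Batf3 fell in 66cl4, the maturation-linked receptor Ccr7 rose, and the other 7 genes did not pass both thresholds. Groups were compared with edgeR's quasi-likelihood test and Benjamini-Hochberg adjustment over all genes tested, and a call required both an adjusted p under 0.05 and a log2 fold change beyond 1 in size. By this rule 3 of the 10 genes were called, 1 higher and 2 lower, whereas 11.8% of the 14676 genes tested were called, 5.01% higher and 6.82% lower. The log2 fold change of 66cl4 over 67NR was below 0 for 8 of the 10, with a median of -0.65 against 0.01 over all genes tested. In 1 of the 10 genes, Xcr1, the libraries of the tumours did not overlap, and 15.1% of all genes tested had that property. Because these are bulk libraries, fewer cells of a type and less RNA per cell cannot be told apart. Replicates are separate animals, so the p-values measure the spread between animals.

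**Figure D1:**
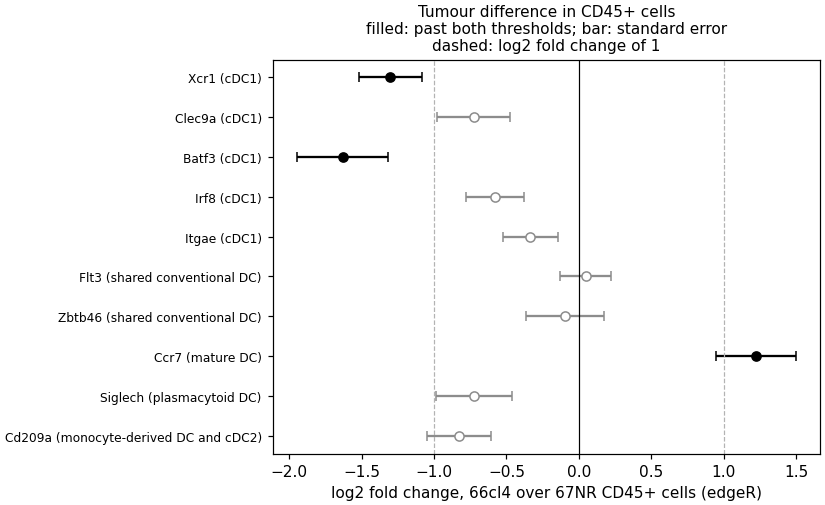
Log2 fold change of 66cl4 over 67NR CD45+ cells (x axis) for each of the 10 genes (y axis, with the subset each marks), from edgeR with 5 animals per tumour. Bars are 1 standard error, filled points passed both thresholds and dashed lines mark a log2 fold change of 1 in either direction. Batf3 (-1.63) and Xcr1 (-1.30) lie left of the dashed line and Ccr7 (1.22) right of it, while Flt3 (0.05) and Zbtb46 (-0.10) lie at 0.

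Xcr1, the receptor for the chemokine Xcl1, had 524, 627, 459, 267 and 337 normalised counts in 66cl4 CD45+ cells of animals 3, 4, 5, 6 and 7, and 787, 1039, 1293, 1190 and 1219 in those of 67NR animals 1, 4, 5, 6 and 7. Every 66cl4 library lay below every 67NR library, although the separation was lost in TPM, a scale that divides by transcript length and by each library's total. The means were 443 ± 144 and 1105 ± 201 (SD, n = 5), and the log2 fold change was -1.30 (SE 0.217, edgeR adjusted p = 0.00157). Across the 17 alternative fits the adjusted p of Xcr1 lay between 5.11e-07 and 0.0157 and the gene stayed called in all of them, including the one without the 4 libraries highest in B cell genes.

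Batf3, the transcription factor that cDC1 need to develop, was the least abundant of the 10 per transcript length in 66cl4 CD45+ cells. It had 37.6, 21.0, 19.3, 25.3 and 13.5 normalised counts in the 66cl4 animals and 37.5, 84.6, 77.2, 68.3 and 93.6 in the 67NR animals, in the order given for Xcr1. Animal 3 of 66cl4 and animal 1 of 67NR met at the same level, and all other libraries separated by tumour. The means were 23.3 ± 9.0 and 72.3 ± 21.6 (SD, n = 5), and the log2 fold change was -1.63 (SE 0.312, edgeR adjusted p = 0.00357). Without the 4 libraries highest in B cell genes, which left 2 animals against 4, the log2 fold change was -1.37 and the call was lost (edgeR adjusted p = 0.0861), within a range of 1.47e-05 to 0.0861 over the 17 alternatives.

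The other cDC1 genes had log2 fold changes below 0 that did not pass the thresholds. Clec9a, the receptor for actin filaments of dead cells, had 337, 381, 258, 180 and 151 normalised counts in 66cl4 and 357, 398, 601, 439 and 387 in 67NR, so that animal 4 of 66cl4 reached into the 67NR range (log2 fold change -0.73, SE 0.250, edgeR adjusted p = 0.0557). Irf8, which also acts in monocytes, B cells and plasmacytoid dendritic cells, had 2026, 2387, 2071, 2089 and 1967 in 66cl4 and 1940, 2377, 3239, 3465 and 5035 in 67NR. Its 66cl4 libraries sat close together at the level of 67NR animals 1 and 4, whereas the 67NR libraries of animals 5, 6 and 7 were higher (log2 fold change -0.58, SE 0.199, edgeR adjusted p = 0.0551). Itgae had 281, 520, 369, 282 and 312 against 322, 413, 550, 471 and 500 normalised counts, with wide overlap (log2 fold change -0.34, SE 0.191, edgeR adjusted p = 0.238).

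**Figure D2:**
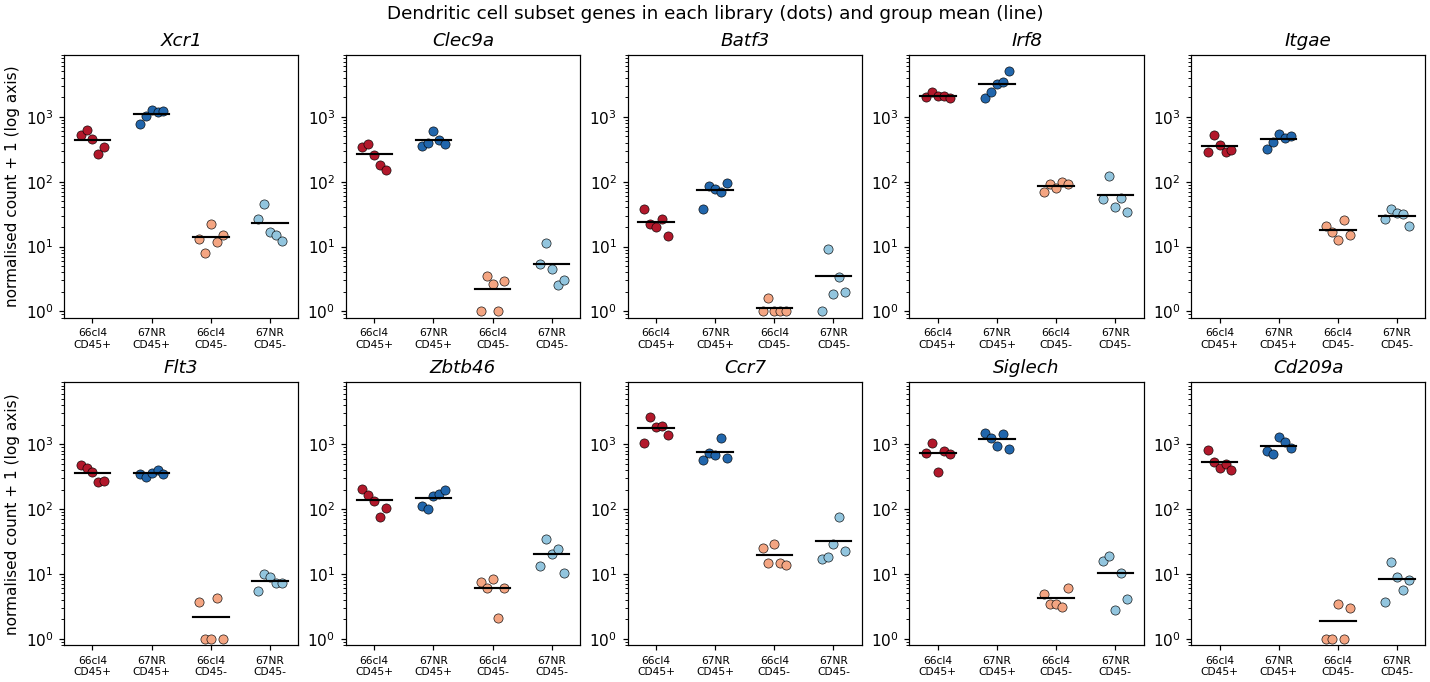
Normalised counts plus 1 (log axis) of the 10 genes in each of the 20 libraries (dots) with the mean of each group (line), 5 animals per group. Xcr1 is lower in every 66cl4 CD45+ library (267 to 627) than in any 67NR CD45+ library (787 to 1293), and every gene lies far lower in the CD45- than in the CD45+ cells.

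Promoter sequence was available in the RefSeq table (build GRCm38.p6) for 8 of the 10 genes, with 2 windows for Irf8, and Itgae and Ccr7 had no entry. The windows run from 250 bases before to 50 bases after a gene's start. They were searched on both strands for TGANTCA, the AP-1 motif that Batf3 binds with Jun proteins, for the paired core of the interferon-stimulated response element (ISRE), and for the composite of an ETS and an IRF site (EICE), and the ISRE and EICE motifs can overlap each other. TGANTCA was in 1 of the 9 windows, that of Zbtb46, and in 7.81% of the 32851 windows of all genes. The ISRE core was in 0 of 9 and in 3.44% of all, and the EICE in 1 of 9, that of Cd209a, and in 2.72% of all. The windows of the 2 genes that fell, Xcr1 (chr9:123861980-123862279, minus strand) and Batf3 (chr1:191098164-191098463, plus strand), are shown because their expression moved together while their start regions differ in base composition, 40% G and C with 6 CpG dinucleotides against 75.7% with 34. Those of Zbtb46 (chr2:181424339-181424638, minus strand) and Cd209a (chr8:3748935-3749234, minus strand) are shown for their matches, in capitals, which lie at positions -61 to -55 and -9 to 1 with the start counted as 1. The Cd209a match lies on the opposite strand, so it reads as the reverse complement. Each is given 5′ to 3′ on the gene's strand.
Xcr1: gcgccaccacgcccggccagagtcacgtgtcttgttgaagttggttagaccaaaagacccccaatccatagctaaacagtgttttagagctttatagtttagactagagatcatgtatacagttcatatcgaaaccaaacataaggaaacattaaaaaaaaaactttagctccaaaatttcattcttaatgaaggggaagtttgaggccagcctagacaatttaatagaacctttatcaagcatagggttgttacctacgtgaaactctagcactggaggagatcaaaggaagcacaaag
Batf3: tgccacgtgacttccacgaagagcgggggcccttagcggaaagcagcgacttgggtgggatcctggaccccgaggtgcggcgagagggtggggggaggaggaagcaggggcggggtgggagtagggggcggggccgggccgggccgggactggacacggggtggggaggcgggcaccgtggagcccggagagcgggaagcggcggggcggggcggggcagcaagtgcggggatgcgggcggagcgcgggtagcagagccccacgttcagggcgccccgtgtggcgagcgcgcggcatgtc
Zbtb46: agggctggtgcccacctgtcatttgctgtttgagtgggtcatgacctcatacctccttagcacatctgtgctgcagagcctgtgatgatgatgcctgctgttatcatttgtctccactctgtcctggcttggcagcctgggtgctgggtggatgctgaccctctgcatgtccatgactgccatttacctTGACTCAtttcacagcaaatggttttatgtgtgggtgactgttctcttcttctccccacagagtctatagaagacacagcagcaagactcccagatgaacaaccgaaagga
Cd209a: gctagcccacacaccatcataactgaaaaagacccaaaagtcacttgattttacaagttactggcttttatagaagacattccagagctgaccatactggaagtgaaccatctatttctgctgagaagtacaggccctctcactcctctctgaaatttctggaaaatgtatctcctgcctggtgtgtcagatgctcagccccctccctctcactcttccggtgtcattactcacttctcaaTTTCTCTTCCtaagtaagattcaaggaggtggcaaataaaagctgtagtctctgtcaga

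A match describes the letters of a window and was not tied to binding or to expression here.

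The 2 genes that conventional dendritic cells share did not separate the tumours. Flt3, the growth factor receptor of dendritic cell precursors and conventional dendritic cells, had 470, 435, 378, 259 and 267 normalised counts in 66cl4 and 351, 313, 362, 395 and 345 in 67NR. The 67NR libraries lay inside the 66cl4 range, and the means were 362 ± 96.0 and 353 ± 29.7 (SD, n = 5; log2 fold change 0.05, SE 0.174, edgeR adjusted p = 0.882). Zbtb46, a repressor typical of conventional dendritic cells and also found in endothelial cells, had 203, 165, 130, 74.7 and 103 against 112, 97.8, 158, 170 and 193. Its groups overlapped over most of their range (log2 fold change -0.10, SE 0.268, edgeR adjusted p = 0.837). Their direction is not settled, since Flt3 and Zbtb46 changed sign in 3 and 4 of the 17 alternatives.

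Ccr7 rose in 66cl4. It had 1057, 2672, 1852, 1915 and 1368 normalised counts in the 66cl4 animals and 573, 727, 674, 1256 and 613 in the 67NR animals. Animal 3 was the lowest in 66cl4 and animal 6 the highest in 67NR, and these 2 libraries crossed, while the rest separated. The means were 1773 ± 615 and 768 ± 279 (SD, n = 5), and the log2 fold change was 1.22 (SE 0.273, edgeR adjusted p = 0.00868). Naive T cells and B cells also express Ccr7. The library highest in B cell genes in each tumour, that of 66cl4 animal 4 and that of 67NR animal 6, also had the most Ccr7 of its group. Without the 4 libraries highest in B cell genes the log2 fold change was 1.19 with the gene still called (edgeR adjusted p = 0.0138). That fit left 2 animals against 4 and also dropped 67NR animal 6, so it cannot decide the part of B cells. The 66cl4 libraries lowest in B cell genes, those of animals 3 and 5, had 1057 and 1852 normalised counts of Ccr7. The sum of 9 T cell genes ranged from 1958 to 7325 normalised counts for 66cl4 and from 1956 to 6925 for 67NR, with 0 of the 9 called. The libraries of 66cl4 animal 4 and 67NR animal 6 also had the highest T cell sums of their groups, 7325 and 6925. In 67NR animal 1, lowest in Ccr7, the T cell sum was the lowest of its group. In 66cl4 the lowest T cell sum was that of animal 5, whereas animal 3 had the least Ccr7. The part of T cells in the Ccr7 difference was not tested. Leaving out 66cl4 animals 5 and 6 together gave a log2 fold change of 1.15 and ended the call (edgeR adjusted p = 0.0527), within a range of 0.000134 to 0.0527 over 17 alternatives.

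Siglech, the surface lectin of plasmacytoid dendritic cells, had 722, 1042, 369, 780 and 696 normalised counts in 66cl4 and 1514, 1231, 946, 1458 and 850 in 67NR. Animal 5 held the lowest level in 66cl4, and animals 5 and 7 of 67NR lay within the reach of 66cl4 animal 4 (log2 fold change -0.72, SE 0.261, edgeR adjusted p = 0.0686). Cd209a had 825, 528, 425, 486 and 396 against 790, 695, 1301, 1098 and 872. Animal 3 of 66cl4 stood above the other 66cl4 libraries and overlapped with 67NR. The adjusted p of Cd209a was 0.0196 (edgeR) at a log2 fold change of -0.82 (SE 0.221), which did not reach the fold threshold. Without 66cl4 animal 3 it was -1.06 (edgeR adjusted p = 0.00400), past both thresholds, and over the 17 alternatives the adjusted p lay between 0.00372 and 0.297.

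Genes known to accompany the subsets were read from the same fit. Of 62 such genes 58 were tested, and 13 were called, 3 higher and 10 lower in 66cl4, beside 11.8% of all genes tested (5.01% higher and 6.82% lower). Their median log2 fold change was -0.0041. Without 66cl4 animals 5 and 6 the number called was 8, where 8.5% of all genes were called, and without the 4 libraries highest in B cell genes it was 14, where 12.2% were. The lists that follow are short, and 1 or 2 calls in them are not set apart from that share. Ccl19 and Ccl21a, which encode the ligands of Ccr7, and Cd209f and Cd209g had too few counts to be tested.

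Among 8 cDC1 companions, 2 fell, 0 rose and 6 were not called, with a median log2 fold change of -0.44. The log2 fold change was below 0 for 6 and above 0 for 2, Nfil3 and Wdfy4 (0.27, edgeR adjusted p = 0.342). Cadm1, an adhesion molecule of cDC1 and of many other cells, was at higher mean levels in the CD45- gate (3492 normalised counts in 66cl4 and 2743 in 67NR) than in the CD45+ gate. In CD45+ cells it ranged from 697 to 1176 normalised counts across 66cl4 and from 1461 to 2591 across 67NR libraries, with no overlap (log2 fold change -1.14, SE 0.181, edgeR adjusted p = 0.00123). Tlr11, a receptor for profilin of parasites, had 109 to 326 against 314 to 563 (log2 fold change -1.05, SE 0.289, edgeR adjusted p = 0.0234). Tlr3, the receptor for double-stranded RNA, also separated the tumours, with 416 to 858 against 1022 to 1394, at a log2 fold change of -0.99 just short of the threshold (edgeR adjusted p = 0.00316). Between the gates, CD45+ over CD45-, Tlr3 lay at -0.75 in 66cl4 and at 1.35 in 67NR. Nfil3, a factor upstream of cDC1 development with many other users, lay at 0.93 and did not reach the fold threshold (edgeR adjusted p = 0.0103). The 8 cDC2 companions split evenly around 0, 4 above and 4 below, with a median log2 fold change of -0.04, from 1.24 for Irf4 (edgeR adjusted p = 0.0629) and 0.61 for Notch2 (edgeR adjusted p = 0.0360), neither called, to the 1 called gene, the lectin gene Clec10a, with 240 to 315 normalised counts against 485 to 696 (log2 fold change -1.09, SE 0.125, edgeR adjusted p = 0.000203). Among 5 companions shared by conventional dendritic cells 1 was called, Cd24a, which neutrophils, B cells and epithelial cells express too, with 3147 to 5203 against 1468 to 2344 (log2 fold change 1.04, SE 0.168, edgeR adjusted p = 0.00131).

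Among 13 companions of mature dendritic cells, 2 rose, 0 fell and 11 were not called, and the median log2 fold change was 0.31. Cd80, a costimulatory ligand for CD28 that macrophages and other myeloid cells also carry, had 4289, 2517, 4775, 3323 and 1817 normalised counts in 66cl4 and 933, 688, 801, 792 and 455 in 67NR. It separated the tumours completely, with the highest levels in 66cl4 animals 3 and 5, which were not those with the most Ccr7 (log2 fold change 2.19, SE 0.278, edgeR adjusted p = 0.00041). Il4i1, an amino acid oxidase of mature dendritic cells and macrophages, had 61.7 to 215 against 26.5 to 56.3 (log2 fold change 1.43, SE 0.343, edgeR adjusted p = 0.0116). Of the 11 genes not called, 9 had log2 fold changes above 0. Ccl22 (0.82, edgeR adjusted p = 0.0179) and Cd86 (0.83, edgeR adjusted p = 0.0185) were short of the fold threshold only, Cd83, Cacnb3, Traf1, Relb, Fscn1, Cd40 and Ccl17 lay between 0.09 and 0.52, and Il12b lay at -0.59. Socs2, an inhibitor of cytokine signalling, lay at -0.96 with no overlap between the tumours and was likewise short of the fold threshold only (edgeR adjusted p = 0.00466).

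Among 10 plasmacytoid companions, 3 fell, 0 rose and 7 were not called, with a median log2 fold change of -0.47. Irf7, the interferon regulatory factor that plasmacytoid dendritic cells hold at high level and that interferon induces in most cells, had 2590, 2954, 2477, 2844 and 2085 normalised counts in 66cl4 and 6167, 6393, 9029, 8830 and 13934 in 67NR. No library overlapped (log2 fold change -1.75, SE 0.201, edgeR adjusted p = 0.000203). Bst2, which is likewise induced by interferon, had 410 to 513 against 699 to 1491 (log2 fold change -1.21, SE 0.162, edgeR adjusted p = 0.000492), and Cox6a2 had a log2 fold change of -1.04. The lineage factor Tcf4 (-0.24) and Runx2 (0.19) were not called. Ly6d, which B cells also express, had the highest log2 fold change of the list, 2.54, and was not called (edgeR adjusted p = 0.0840).

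In the Cd209 family, whose neighbouring members are similar in sequence so that the authors' counting may divide reads among them, 4 of 6 genes were tested and 1 fell, Cd209e, with 20.2 to 44.0 normalised counts in 66cl4 against 67.1 to 111 in 67NR (log2 fold change -1.41, SE 0.259, edgeR adjusted p = 0.00279). Of 12 ligands and partners 10 were tested, and 3 fell. Xcl1, the ligand of Xcr1 that NK and CD8 T cells release, had 96.0, 247, 128, 257 and 361 normalised counts in 66cl4 and 156, 734, 1013, 1213 and 1755 in 67NR. Animal 1 of 67NR lay within the 66cl4 range and the other 67NR libraries above it (log2 fold change -2.12, SE 0.544, edgeR adjusted p = 0.0191). Its fall went with that of the NK cell list, and no test separated them. Csf2, a cytokine that supports dendritic cell differentiation, had 9.64 to 24.2 against 23.4 to 90.5 (log2 fold change -1.90, SE 0.378, edgeR adjusted p = 0.00435), and Batf2 had a log2 fold change of -1.11. The Flt3 ligand gene Flt3l (0.05) was not called, with 175 to 408 and 169 to 377 normalised counts.

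**Figure D3:**
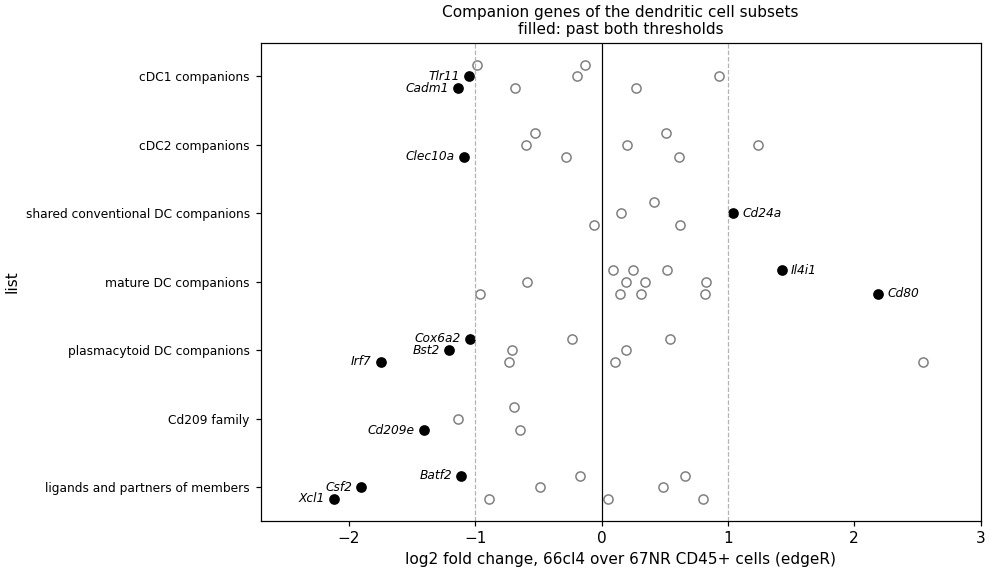
Log2 fold change of 66cl4 over 67NR CD45+ cells (x axis) for the 58 companion genes tested, by list (y axis, points spread vertically for legibility), from edgeR with 5 animals per tumour. Filled, named points passed both thresholds: 10 lie below 0 and 3 above, and the 3 above 0 are Cd80, Il4i1 and Cd24a.

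Ratios between the genes were taken within each library, where differences in depth cancel, and are given with no test because they were formed from genes already compared. The ratio of Xcr1 to Flt3 was 1.03 to 1.44 in 66cl4 and 2.24 to 3.57 in 67NR, with means of 1.21 ± 0.156 and 3.14 ± 0.548 (SD, n = 5), and no library overlapped. Likewise the ratio of Clec9a to Flt3, 0.708 ± 0.111 against 1.24 ± 0.254, and that of Xcr1 to Zbtb46, 3.35 ± 0.467 against 7.82 ± 1.71, did not overlap. Clec9a thus separated the tumours relative to Flt3 but not in its own level. Relative to Zbtb46 it ranged from 1.47 to 2.41 in 66cl4 and from 2.00 to 4.07 in 67NR, which overlap. Xcr1 relative to Clec9a was 1.74 ± 0.295 against 2.57 ± 0.410, with an overlap between 66cl4 animal 7 (2.23) and 67NR animals 1 and 5 (2.20 and 2.15). Flt3 relative to Zbtb46 was 2.78 ± 0.436 and 2.55 ± 0.604. The ratios of Batf3, Irf8, Ccr7, Siglech and Cd209a to Zbtb46 and of Ccr7 to Flt3 also overlapped between the tumours. Ccr7 relative to Xcr1 was 4.31 ± 1.84 in 66cl4, with a lowest value of 2.02. In 67NR it was 0.701 ± 0.222, with a highest value of 1.06, so no library overlapped. These ratios of counts are not corrected for transcript length, so a ratio above or below 1 does not rank the genes. In TPM the mean of Ccr7 was above that of Xcr1 in both tumours, 85.5 against 9.68 in 66cl4 and 36.8 against 23.4 in 67NR.

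**Figure D4:**
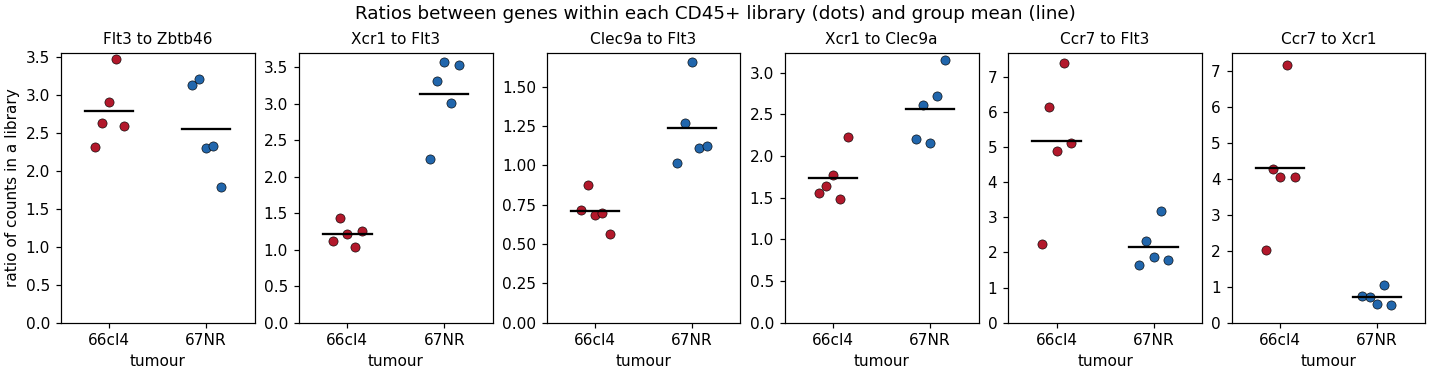
Ratio of the counts of pairs of genes (y axis, from 0) in each CD45+ library (dots) with the group mean (line), 66cl4 against 67NR, 5 animals each. Xcr1 to Flt3, Clec9a to Flt3 and Ccr7 to Xcr1 separate the tumours without overlap. Flt3 to Zbtb46 (2.32 to 3.46 against 1.78 to 3.20), Xcr1 to Clec9a and Ccr7 to Flt3 (2.25 to 7.40 against 1.63 to 3.18) do not.

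Within each tumour the genes varied unevenly among animals. In 66cl4 the coefficient of variation over the 5 animals was 7.73% for Irf8 and 26.5 to 38.6% for the other 9, and in 67NR it was 8.41% for Flt3 and 18.2 to 37.2% for the rest. In 66cl4 animals 3 and 4 together held the highest level of all 10 genes: animal 3 for Batf3, Flt3, Zbtb46 and Cd209a, and animal 4 for Xcr1, Clec9a, Irf8, Itgae, Ccr7 and Siglech. Animals 6 and 7 held the lowest level of 7, among them Xcr1, Flt3 and Zbtb46 in animal 6. In 67NR animal 1 was lowest for 6 genes, the 5 cDC1 genes and Ccr7, and highest for Siglech. The same 67NR animal had the highest neutrophil sum of its group, 52320, and the part of that in its levels was not tested.

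**Figure D5:**
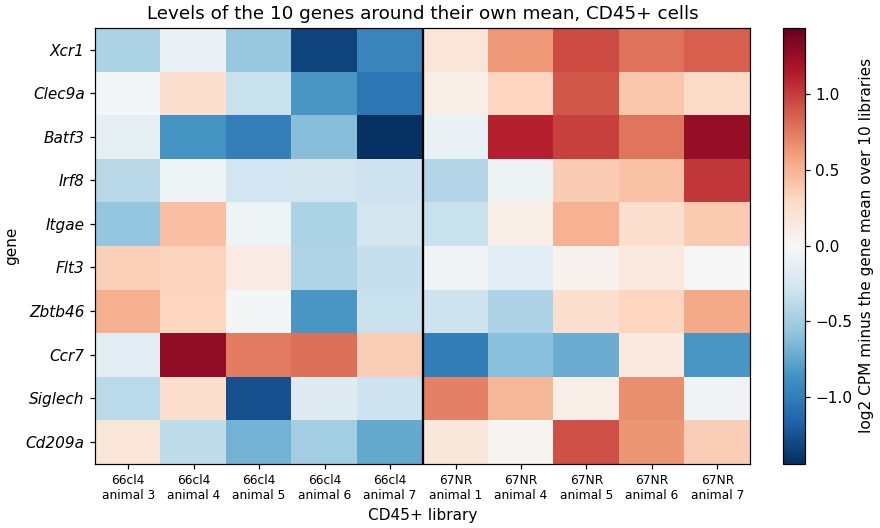
Levels of the 10 genes (rows) in the 10 CD45+ libraries (columns, 66cl4 left and 67NR right of the line), as log2 CPM minus each gene's own mean over the 10 libraries, red above and blue below it. The Xcr1 and Batf3 rows are blue or near white in 66cl4 and mostly red in 67NR, Ccr7 shows the reverse, and Flt3 stays pale throughout. The Clec9a row is like that of Xcr1 except in 66cl4 animal 4, which lies above the mean (0.25) and above 67NR animal 1 (0.10).

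Levels of different genes can be compared only per length, so they were ranked in TPM within CD45+ cells. In 66cl4 the order was Ccr7 (85.5 ± 32.6 TPM), Irf8 (58.2 ± 8.72), Cd209a (34.5 ± 12.6), Siglech (30.2 ± 11.5), Xcr1 (9.68 ± 3.74), Itgae (8.87 ± 3.11), Flt3 (8.85 ± 2.85), Clec9a (7.70 ± 3.35), Zbtb46 (2.49 ± 1.06) and Batf3 (2.00 ± 0.809; SD, n = 5). Only Siglech against Xcr1 and Clec9a against Zbtb46 were neighbours whose libraries did not overlap. In 67NR it was Irf8 (88.4 ± 39.7 TPM), Cd209a (60.1 ± 17.7), Siglech (48.1 ± 11.2), Ccr7 (36.8 ± 16.2), Xcr1 (23.4 ± 5.91), Clec9a (12.4 ± 3.02), Itgae (11.1 ± 2.85), Flt3 (8.34 ± 1.29), Batf3 (6.18 ± 2.20) and Zbtb46 (2.61 ± 0.917), and every pair of neighbours overlapped. Ccr7 was thus at rank 1 in 66cl4 and at rank 4 in 67NR.

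The genes most like each of the 10 were sought over the 10 CD45+ libraries, by the root mean square difference of log2 CPM after each gene was centred on its own mean. Nearest to Xcr1 among 14675 other genes were Tlr11 (0.20) and Gpr33 (0.23), against a median of 0.84 over all genes, and Clec9a at 0.35 was the nearest of the other listed genes, at rank 27. For Clec9a they were Gpr141b (0.13) and Mycl (0.24), with Cd209a at rank 15. For Batf3 they were B4galt4 (0.29) and Cxcl10 (0.32), with Xcr1 at rank 37. Zbtb46 lay nearest to Snx32 (0.22) and Cd300lg (0.25), with Flt3 at rank 13, and Cd209a to Slfn5 (0.23) and Zfp366 (0.25), with Clec9a at rank 16. Ccr7 was nearest to Haao (0.27) and Sh3bp5 (0.27), and no other listed gene came closer to it than rank 5845. The nearest pairs were Lgals9 and Tnfrsf18 for Irf8, Lpcat1 and Irf1 for Itgae, Pot1b and Zfyve1 for Flt3, and Zfp974 and 2610044O15Rik8 for Siglech. For these genes too the nearest of the other listed genes was far down. It was Itgae at rank 439 for Irf8 and Irf8 at rank 362 for Itgae. For Flt3 it was Zbtb46 at rank 1033, and for Siglech it was Cd209a at rank 1932. These 10 libraries share the tumour difference and the animals' make-up, so likeness over them is a description.

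Sorting by CD45 placed the transcripts of all 10 genes in the immune gate. All 10 were called higher in CD45+ than in CD45- cells of 66cl4, where 44.4% of 14916 genes were called and 23.9% were higher, and all 10 in 67NR, where 39.8% of 15063 genes were called and 20.2% were higher. Clec9a, Batf3, Flt3, Zbtb46, Siglech and Cd209a passed the filter on low counts only through the CD45+ libraries in both tumours, and so did Xcr1 in 66cl4, so for them a difference was built in. Irf8, Itgae and Ccr7 passed it in either gate alone. In each tumour every CD45+ library exceeded every CD45- library for each gene, and each gene was higher in the CD45+ library of all 5 animals. The log2 fold changes were 2.87 for Zbtb46 to 6.97 for Cd209a in 67NR, and 4.36 for Itgae upwards in 66cl4. In 66cl4 CD45- cells no library held more than 3 counts of Batf3, Flt3 or Cd209a, so their levels in CD45+ cells were at least 8.03-fold, 124-fold and 183-fold higher, with the floor of 3 counts averaged over the libraries.

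What remained in the CD45- gate differed among the genes. Ptprc in CD45- cells was 0.385% of its CD45+ mean in 66cl4 and 1.22% in 67NR, which is a measure of leukocyte RNA in that gate. Cd209a (0.169 and 0.770%), Siglech (0.446 and 0.785%) and Clec9a (0.471 and 1.01%) were at shares of that order. Irf8 kept 4.04% in 66cl4, from 3.41 to 4.63% in single animals against 0.0518 to 0.891% for Ptprc. In 67NR it kept 1.89% (0.650 to 5.08%), against 0.669 to 2.98% for Ptprc. Its normalised counts in 66cl4 CD45- cells were 69.0, 89.8, 79.1, 96.7 and 90.8, while those of Ptprc were 10.6, 26.2, 138, 40.4 and 161. In 67NR CD45- cells Irf8 had 53.5, 121, 40.4, 55.5 and 32.7 in animals 1, 4, 5, 6 and 7. Ptprc had 205, 473, 145, 332 and 178 there, and both genes were highest in animal 4. The part of leukocyte RNA in these Irf8 levels was not tested. Itgae kept 4.85 and 6.41%, Xcr1 2.94 and 1.99%, and Ccr7 1.04 and 4.12%. The largest share was that of Zbtb46 in 67NR, 13.4% (4.76 to 34.5% in single animals), against 3.72% in 66cl4. Which cells of the CD45- gate held these transcripts was not tested.

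Between the CD45- cells of the tumours, the only call was for Zbtb46, which was lower in 66cl4 and passed the filter on low counts only through the 67NR libraries, so that a difference was built in. The 66cl4 libraries held 1 to 9 counts of it. Its normalised counts were 6.64, 4.99, 7.49, 1.06 and 4.99 in 66cl4 and 12.3, 33.8, 19.3, 23.4 and 9.20 in 67NR. No library overlapped, and the log2 fold change was -1.91 (SE 0.442, edgeR adjusted p = 0.00159), with adjusted p from 0.000914 to 0.00556 when single libraries were left out. The filter left 5 of the 10 genes to test, and 32.2% of the 14844 genes tested were called and 18.9% were lower. In the same libraries 4 of 5 endothelial genes fell in 66cl4 (Pecam1, Kdr, Tek and Emcn, with a list median of -3.18 on the log2 scale), and the summed endothelial level was 517 to 1031 normalised counts against 1033 to 4114. Cdh5 was not called (-0.65, edgeR adjusted p = 0.0942). In 66cl4, Pecam1 (3.60) and Kdr (1.94) were higher in CD45+ than in CD45- cells, so they did not mark the CD45- gate alone. Cdh5 (-2.33) and Emcn (-2.26) were lower there, and Tek was not tested. The part of endothelial cells in the Zbtb46 difference was not tested. Itgae lay at -0.74 (edgeR adjusted p = 0.0260, short of the fold threshold), and Xcr1 (-0.74, which also passed the filter through 67NR), Ccr7 (-0.76) and Irf8 (0.52) were not called.

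The 5 genes below the filter in CD45- cells had few counts, and they were compared by two-sided exact permutation tests of the mean normalised counts, for which the smallest possible p with 5 against 5 libraries is 0.00794. Flt3 ranged from 0 to 3.19 normalised counts for 66cl4 and from 4.39 to 9.0 for 67NR, with no overlap (exact p = 0.00794), and Cd209a 0 to 2.50 and 2.63 to 14.3, also with none (exact p = 0.00794). Batf3 had 1 count in all in 66cl4 and 0 to 8.25 normalised counts in 67NR (exact p = 0.0476), Clec9a 0 to 2.49 and 1.56 to 10.5 (exact p = 0.0635), and Siglech 2.12 to 4.99 and 1.76 to 18 (exact p = 0.127). In all 10 genes together, 3 had libraries that did not overlap between the tumours, whereas 52.9% of genes tested in CD45- cells did not. The number of the 10 called in CD45- cells was 5 without the filter, where 23% of 29457 genes were called, and 6 with all 20 libraries in 1 fit, where 32.2% of 16453 were. Ptprc in the CD45- cells was at 10.6 to 161 normalised counts in 66cl4 against 145 to 473, and its part in these low values was not tested.

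The interaction term of a fit to all 20 libraries asked whether the tumour difference was the same in both gates, and an adjusted p under 0.05 counted as a call. It was called for 5 of the 10 genes, a share near the 43.1% of all 16453 genes tested. The ratio of the Ptprc means, 66cl4 to 67NR, was 0.892 in CD45+ and 0.282 in CD45- cells. The part of leukocyte RNA in the CD45- gate in these interactions was not tested. The difference of log2 fold changes, CD45+ minus CD45-, was 2.01 for Ccr7 (SE 0.55, edgeR adjusted p = 0.00643), with log2 fold changes of 1.22 in CD45+ and -0.76 in CD45- cells. It was 1.81 for Zbtb46 (SE 0.523, edgeR adjusted p = 0.00885), with -0.10 in CD45+ and -1.91 in CD45- cells, where it rests on 66cl4 libraries of 1 to 9 counts. For Irf8 it was -1.10 (SE 0.385, edgeR adjusted p = 0.0275), and for Flt3 2.74 (SE 0.615, edgeR adjusted p = 0.00136) and Cd209a 2.02 (SE 0.755, edgeR adjusted p = 0.0370), both resting on 66cl4 CD45- libraries of at most 3 counts. With the animal as a replicate block, which pairs the gates of a mouse, 3 of the 10 were called beside 43.5% of all genes, and Irf8 (adjusted p = 0.0541 by edgeR) and Cd209a (adjusted p = 0.0770 by edgeR) were not. Without single libraries Cd209a lost its call in 8 of 20 fits (edgeR adjusted p up to 0.124, without the CD45- library of 66cl4 animal 4) and Irf8 in 1 (edgeR adjusted p = 0.0533, without the CD45+ library of 67NR animal 7). Irf8 also lost its call without 66cl4 animals 5 and 6 (edgeR adjusted p = 0.127, the highest over 25 alternatives, the lowest being 0.000243).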

How the data were processed

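RNA of sorted CD45+ and CD45- cells of 5 66cl4 and 5 67NR tumours was sequenced by the study as single reads. The authors trimmed reads with fastp, estimated transcript counts with Salmon 1.3.0 and summed them to genes with tximport, and the deposited table holds these estimated counts without normalisation. Their notes name GRCh38, a human reference, although the identifiers are those of mouse, so no coordinates were taken from the table. Symbols were matched for 51492 of 52783 identifiers. Libraries were grouped by sample title.

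Estimated counts were rounded and compared in R 4.3.3 with edgeR 4.0.16 (TMM, low genes removed by group at minimum counts of 10 per library and 15 in total, robust quasi-likelihood fit) over the groups compared, with DESeq2 1.42.0 as an alternative. Between 15.1 and 18.0% of values were not whole. TPM used the longest GENCODE transcript of each gene, and 1291 genes without a length took 2.58% of counts. Counts of 3 served as the floor, for counting error only. Replicates differed by a chi-square per degree of freedom of 13.5 to 170, so none was counted as a duplicate. The script for the tests was tested on simulated data. The pairing of gates comes from the animal numbers. Deviations of CD45+ and CD45- libraries of 1 animal correlated at 0.0206 to 0.101 in 66cl4 and from -0.00048 to 0.279 in 67NR, and between tumours animals share only a number.

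The 10 genes, the companion and cell type lists and the tests were chosen with earlier results of these data known. Named genes are the 10, Ptprc, up to 2 called genes per companion list and direction with the largest fold change, and the 2 genes of most similar pattern to each of the 10. Tlr3, Nfil3, Wdfy4, Irf4, Notch2, the other mature companions, Cox6a2, Tcf4, Runx2, Ly6d, Batf2, Flt3l, Mertk, the endothelial, monocyte and epithelial genes and the untested companions were named after their values were seen. Figures were drawn with matplotlib 3.10.9.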

Additional observations from a re-analysis of the deposited data

Results flagged for a closer look

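In 6 of 40 groups of 5 libraries, 1 library of a gene stood apart from the rest by Dixon's criterion. Chance gives about 2 for independent, normally distributed values. The genes share libraries and some counts are near 0, so 6 cannot be set against 2 as a test. In CD45+ cells, Irf8 had 2387 normalised counts in 66cl4 animal 4 against 1967 to 2089 in the other 66cl4 animals, and Ccr7 had 1256 in 67NR animal 6 against 573 to 727. In CD45- cells, Ccr7 was again high in 67NR animal 6, at 75.8 against 15.8 to 28.1. Animal 4 of 67NR stood apart in CD45- cells for Irf8, at 121 against 32.7 to 55.5, and for Batf3, at 8.25 against 0 to 2.34, and the same library had the most Ptprc of its group, 473 normalised counts. Batf3 in 66cl4 CD45- animal 4, at 0.623, is a single count where the other libraries had 0.

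The tumour difference differed between the gates for 5 genes by the interaction test, with CD45+ minus CD45- differences of log2 fold changes of -1.10 for Irf8, 2.74 for Flt3, 1.81 for Zbtb46, 2.01 for Ccr7 and 2.02 for Cd209a, beside 43.1% of all genes tested. Those of Flt3 and Cd209a rest on 66cl4 CD45- libraries of at most 3 counts, and that of Zbtb46 on libraries of 1 to 9. The part of leukocyte RNA in the CD45- gate was not tested. With the animal as a block, which pairs the 2 gates of a mouse, the calls of Irf8 (edgeR adjusted p = 0.0541) and Cd209a (edgeR adjusted p = 0.0770) were lost and 3 remained.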

How the results depend on the processing

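The limits of the comparison are the differing make-up of the CD45+ cells, the contradictory labels of 66cl4 animals 5 and 6, whose Ptprc levels go with the titles followed here, and counts near the floor in CD45- cells. Over the alternatives the calls of all 10 genes between the gates and of Xcr1 between the tumours were kept. Between the gates, a difference was built in by the filter for Clec9a, Batf3, Flt3, Zbtb46, Siglech and Cd209a, and for Xcr1 in 66cl4. For these genes the kept calls are therefore no check of the gate difference where the filter was used. In CD45+ cells without 66cl4 animals 5 and 6, 8 companions were called in place of 13, and Zbtb46 lay at 0.11. The setting without the 4 libraries highest in B cell genes was chosen after seeing the data, and there 2 of the 10 genes were called and Zbtb46 lay at 0.26. The replicate block moved Flt3 to -0.081, and Cd209a between the CD45+ groups to -1.05 with the call gained (edgeR adjusted p = 0.0134), but animals of the 2 tumours share only a number. In CD45- cells 5 of the 10 were called without a filter and 6 with all 20 libraries, in place of 1. The interaction gave 3 without a filter and 3 with the block pairing the gates, in place of 5. Libraries that did not overlap in CD45+ cells were found for 2 genes in CPM and for 0 in TPM, in place of 1. Leaving out single libraries gave 3 to 4 of the 10 called in CD45+ cells, 1 to 1 in CD45- cells, 10 to 10 between the gates of each tumour, 4 to 5 for the interaction and 10 to 16 companions, with Flt3 at -0.082 to 0.15 and Zbtb46 at -0.31 to 0.058 between the CD45+ groups. The causes were not tested.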
